A study of Mus musculus with 2 samples.

Results

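Proliferating endothelial cells (ECs) of mouse long bone were taken as cells that held transcripts of the endothelium together with transcripts of the cell cycle. A cell was chosen when it had 500 to 6000 detected genes and under 25% mitochondrial UMIs, at least 3 of the 7 endothelial genes Cdh5, Pecam1, Kdr, Emcn, Tie1, Esam and Plvap, no Ptprc (the pan-leukocyte antigen CD45), and at least 3 of the 6 cell cycle genes Mki67, Top2a, Birc5, Cdk1, Ube2c and Prc1. A gene counted as detected with 1 or more unique molecular identifiers (UMIs, the tags that mark single captured RNA molecules). The rule found 756 such cells in the Control library and 1093 in the Dach1OE library, which were 1849 of 22598 ECs by the same endothelial criteria and of 55783 cells that passed the filters. The 7 endothelial and 6 cell cycle genes therefore chose the cells, and their levels are given only as a description.

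The cells came from the femur and tibia of C57BL/6 mice at postnatal day 30. The epiphysis had been taken off, and magnetic beads served for the depletion of blood lineage cells and of cells bearing CD45 or CD117. The Control library carried the genotype Dach1OE +/f and the Dach1OE library the genotype Apj CreERT2 – Dach1OE +/f. Mice of both groups received tamoxifen, which per the methods was given shortly after birth. The conditional Dach1 transgene lies in the Rosa26 locus, the Cre is driven by Aplnr (Apj), the apelin receptor of capillary endothelium, and the methods also crossed in a membrane fluorescent reporter at Rosa26. Each library pooled 2 mice of both sexes, and there was 1 library per group. No test was therefore possible: all differences between the groups are differences between 2 libraries, and all 95% intervals given here cover counting error only.

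Cells enter the cycle when D cyclins, with their kinases Cdk4 and Cdk6, inactivate the retinoblastoma proteins and free the E2F factors, which turn on cyclin E and the genes of DNA replication. The helicase of the Mcm proteins is loaded on the origins before S phase, and ribonucleotide reductase and thymidylate synthase then supply the nucleotides. Cyclin A, cyclin B and Cdk1 lead the cell into mitosis, the kinetochore and the spindle part the chromosomes, and the anaphase-promoting complex destroys the cyclins at the end. In bone, ECs line the sinusoids of the marrow (type L), the columns of the metaphysis next to the growth plate (type H, where growth of vessels is coupled to bone formation), arteries, and the type R capillaries downstream of arteries. ECs of the metaphysis are known to divide most during growth of the skeleton.

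Genes of the late cell cycle are known to share promoter elements: the cell cycle genes homology region (CHR, letters TTTGAA), often set near a CCAAT box, whereas many replication genes carry E2F sites (searched as TTCCCGC or TTGGCGC). These letters were searched on both strands in the 250 bases before each start site of 27025 genes, with promoter sequences of RefSeq on GRCm38.p6. A CCAAT on one strand can share bases with TTGGCGC on the other. To show what the genes that chose the cells hold next to their starts, the 120 bases before the start of 3 of them are printed with the replication gene Mcm6, which did not choose cells. Capitals mark the motifs on either strand.
Mki67, chr7:135716380-135716499, minus strand: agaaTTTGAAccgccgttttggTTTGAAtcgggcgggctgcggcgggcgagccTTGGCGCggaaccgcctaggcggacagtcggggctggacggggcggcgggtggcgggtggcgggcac
Top2a, chr11:99024190-99024309, minus strand: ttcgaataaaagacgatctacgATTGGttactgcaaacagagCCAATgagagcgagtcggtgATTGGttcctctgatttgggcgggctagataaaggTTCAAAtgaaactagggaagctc
Birc5, chr11:117849117-117849236, plus strand: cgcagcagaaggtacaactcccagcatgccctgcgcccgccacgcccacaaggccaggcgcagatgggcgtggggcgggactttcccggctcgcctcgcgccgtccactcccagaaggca
Mcm6, chr1:128359706-128359825, minus strand: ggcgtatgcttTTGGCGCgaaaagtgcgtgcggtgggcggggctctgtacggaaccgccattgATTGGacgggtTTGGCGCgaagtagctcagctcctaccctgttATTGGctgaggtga
No exon is annotated in these stretches. Top2a, the topoisomerase that untangles sister chromatids, had 1 CHR and 3 CCAAT letters in its stretch. Mki67, which coats mitotic chromosomes, had 2 CHR and 1 E2F match, Mcm6 had 2 E2F and 2 CCAAT matches and no CHR, and the stretch of Birc5 held none of these letters. In the full 250 bases, 5 of the 6 genes that chose the cells (83.3%) had a CHR, beside 18.3% of all genes, and 5 had a CCAAT box, beside 37.5% of all. Both letters together stood in 5 of the 6 and in 7.34% of all genes, and an E2F match stood in 2 of the 6 and in 6.45% of all. Of 30 matched genes of the kinetochore, spindle and cytokinesis list (35 genes), 10 (33.3%) had a CHR, 20 (66.7%) a CCAAT box and 2 an E2F match. Among the 10 matched genes of the anaphase-promoting complex list, 4 had a CHR and 7 a CCAAT box, whereas 1 and 6 of the 16 matched genes of glycolysis did, of which 5 had an E2F match. Of 9 matched genes of the nucleotide synthesis list (10 genes), 1 had a CHR, 4 a CCAAT box and 1 an E2F match. The replication list matched only 24 of 32 genes and the mitotic kinase list 12 of 18, under 80% of their genes, and no share is given for them. These matches describe letters and not bound sites.

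Most ECs had none of the 6 cell cycle genes, and ECs with 1 of them outnumbered those that met the rule. Of all ECs, 78.2% in Control and 73.4% in Dach1OE had none of the 6. A single gene was seen in 1344 Control (12.3%) and 1627 Dach1OE (14.0%) ECs. Just outside the rule, 283 Control and 385 Dach1OE ECs had 2 of the 6 genes, with a median of 2 UMIs over the 6 in both libraries. Just inside it, 145 and 215 cells had 3 genes, with a median of 5 UMIs in both. The largest class inside the rule had all 6 genes, 289 and 439 cells with medians of 31 and 29 UMIs. The cells near the threshold thus rested on few molecules, and cells with all 6 did not.

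**Figure D1:**
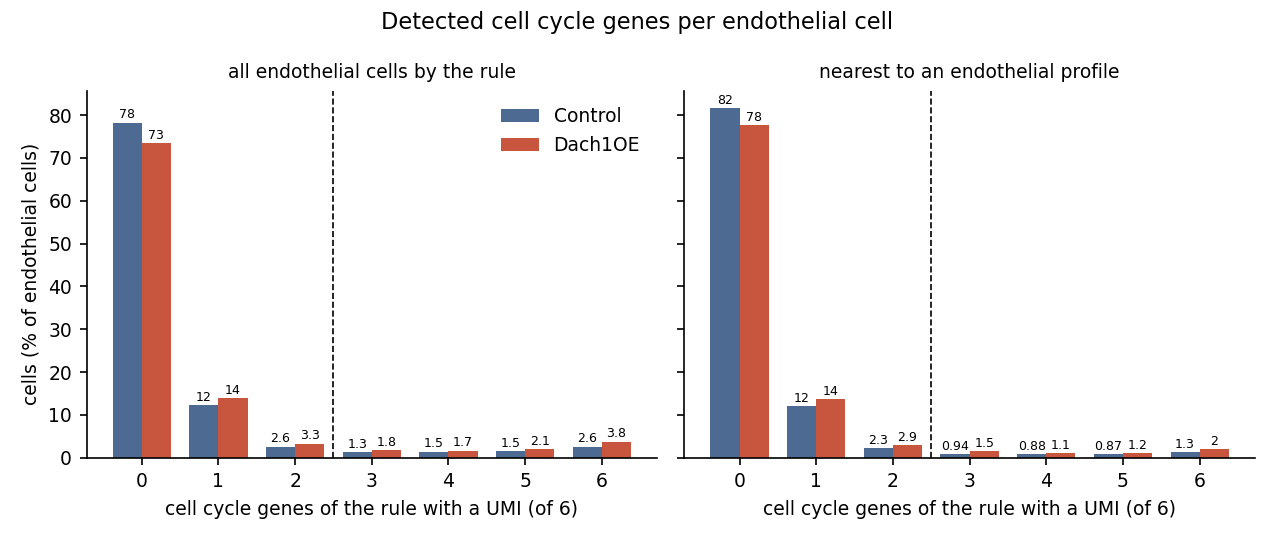
Number of the 6 cell cycle genes with a UMI (x axis) against the percent of ECs of a library (y axis), for all ECs by the rule (left) and for ECs nearest to an endothelial profile (right), Control in blue and Dach1OE in red. The dashed line is the threshold of the rule, and past it the largest class is the one with all 6 genes, 2.6% and 3.8% of all ECs.

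The label held for only part of the cells. Each cell was set against summed profiles of endothelial, haematopoietic, stromal, chondrocyte and mural cells and against equal mixtures of an endothelial with another profile, on genes outside the cell cycle. An endothelial profile was nearest in 358 Control (47.4%) and 543 Dach1OE (49.7%) proliferating ECs. A mixed profile was nearest in 258 (34.1%) and 346 (31.7%), and a profile of another class alone in 140 (18.5%) and 204 (18.7%). The endothelial genes of the rule, which also enter the profiles, are given for these classes as a description. Their summed level was 8011 and 8234 CPM (summed UMIs scaled to a common library size) in the endothelial-profile cells, 2796 and 2862 CPM in the mixed cells, and 779 and 772 CPM in the cells of another class, in Control and Dach1OE. Cdh5, the cadherin of endothelial junctions, stood at 1243.5 and 1406 CPM in the first, 428 and 489 CPM in the second and 83.4 and 120 CPM in the third.

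The mixed cells carried defining genes of blood cell precursors more often than of any other class. The partner was haematopoietic in 154 Control and 199 Dach1OE cells, and 126 and 158 of these matched an erythroid-like profile. In the latter, Gata1 and Klf1, transcription factors of red cell precursors chosen here after their values were seen, had 271 and 329 CPM in Control and 302 and 349 CPM in Dach1OE, beside 9.49 and 16.98 CPM and 11.8 and 12.2 CPM in the endothelial-profile cells. Scrublet, which scores likeness to simulated pairs of cells, marked 82.2% and 77.7% of the mixed cells but 3.91% and 0.921% of the endothelial-profile cells. Marked cells were kept in the values over all proliferating ECs. A haematopoietic profile was also the one in which cycling was most common: 67.2% and 66.5% of its cells without Ptprc had at least 3 of the 6 cycle genes. Cells of other profiles also passed the endothelial criterion: at least 3 of the 7 genes were detected in 6.53% and 5.90% of chondrocyte-profile cells without Ptprc (median 10746 and 10181 UMIs) and in 5.78% and 6.49% of haematopoietic-profile ones (4793.5 and 4747.5 UMIs). Whether free RNA or joined cells gave these was not tested. The values that follow are therefore of the endothelial-profile cells, a setting added after these mixtures had been seen, unless they are said to be over all proliferating ECs.

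**Figure D2:**
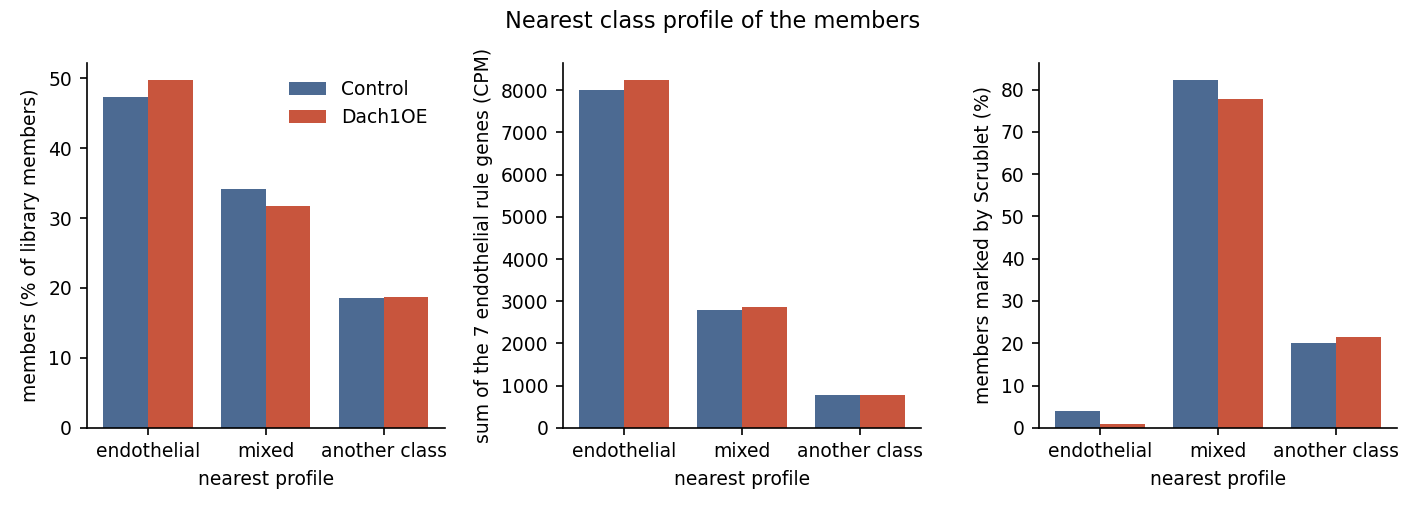
Proliferating ECs (members) by nearest profile on the x axis, Control in blue and Dach1OE in red. The y axes are the percent of the library's members (left), the summed CPM of the 7 endothelial genes of the rule (middle) and the percent marked by Scrublet (right): the mixed cells are 34.1% and 31.7% of the members, with endothelial levels between the other 2 classes and most of the Scrublet marks.

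Proliferating ECs were deeper than other ECs. Their medians were 6561 and 6471 UMIs in Control and Dach1OE, beside 2888 and 2862.5 UMIs in ECs with fewer than 3 cycle genes, and within the endothelial profile 5047.5 and 4591 beside 2639 and 2609 UMIs. The 2 tables held 28720 and 32028 cells with 1.51 and 1.45 reads per UMI. They had 1049 cell indices in common, but none among the proliferating ECs. Cells that showed Xist and no Y-linked UMI were 59.1% and 58.3% of the endothelial-profile members whose sex could be told, and 56.2% and 57.1% of the other ECs. Of the markers of other cell types, the summed level in endothelial-profile members was 354 and 702 CPM for the 14 haematopoietic genes, 1355 and 2019 CPM for the 9 stromal and osteoblastic genes, 970 and 1192 CPM for the 6 chondrocyte genes, and 54.4 and 74.3 CPM for the 6 mural genes. All genes of these 4 lists had a UMI there, whereas the 4 lymphatic genes summed to 3.995 and 5.74 CPM with Lyve1 and Ccl21a at 0. In other endothelial-profile ECs the sums of the 4 lists were 202 and 167, 1865 and 2781, 1104 and 1571, and 96.1 and 123 CPM in that order. Of these only the haematopoietic sum was higher in the members. At least 3 haematopoietic genes were detected in 8.10% and 5.16% of the members, which were deeper, and in 0.856% and 0.786% of the other ECs.

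Dach1 checked the labels (chr14:97786853-98169765, minus strand, GRCm38, by the annotation of GENCODE vM21). Dach1, a transcription factor known from the growth of coronary arteries, had 8 UMIs or 3.995 CPM in the 358 Control cells and 491 UMIs or 176 CPM in the 543 Dach1OE cells. The log2 ratio was 5.46 (4.47 to 6.68), and in other endothelial-profile ECs it was 5.42 (5.17 to 5.67). With cells thinned to 2000 UMIs to equal their depth, Dach1 was seen in 1.19% of Control and 28.4% (24.5 to 32.6) of Dach1OE proliferating ECs. Other ECs gave 0.895% and 29.9% (28.7 to 31.1), so that within Dach1OE the intervals of dividing and other ECs overlapped. By summed CPM they did not: Dach1 was 176 CPM (161 to 193) in dividing and 207 CPM (202 to 212) in other Dach1OE ECs of the profile. Over all proliferating ECs of Dach1OE, mixed cells included, the share was lower, 19.3% (16.98 to 21.9). Turned around, 5.13% of Dach1-positive and 5.35% of Dach1-negative Dach1OE ECs were proliferating within the endothelial profile, a difference of -0.228 points (-1.36 to 1.01). Over all ECs by the rule the same difference was -2.34 points (-3.49 to -1.09), with the mixed cells among them, and their part in it was not tested.

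The share of ECs in the cycle was higher in the Dach1OE library. Over all ECs by the rule, 6.91% (756 of 10937, interval 6.44 to 7.40) of Control and 9.37% (1093 of 11661, 8.85 to 9.92) of Dach1OE cells were proliferating, a difference of 2.46 points (1.75 to 3.17). Within the endothelial profile the shares were 3.97% and 5.83%, a difference of 1.85 points (1.23 to 2.48). The values of both libraries thus fell by over 2 points once mixed and other cells were left out, and the counting interval of the difference between them lay above 0 in both.

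The order of the libraries was the same at equal depth. With every cell thinned to 2000 UMIs the shares were 5.72% and 7.63%, and 3.42% and 5.29% within the endothelial profile, a difference of 1.87 points (1.16 to 2.58). At 1000 UMIs they fell to 1.68% and 2.44% within the profile, a difference of 0.759 points (0.342 to 1.18). Counting cells with all 6 genes gave 1.29% and 2.05%, and the Dach1OE share was the higher at each threshold from 2 to 6 genes. In cells with Xist, taken to be of the female mice, the shares were 4.96% and 7.23%, a difference of 2.27 points (1.03 to 3.52). In cells with Y-linked UMIs they were 4.43% and 6.92%, a difference of 2.48 points (1.1 to 3.9). The library and the genotype cannot be told apart.

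Proliferating cells were more frequent among metaphyseal-like than among sinusoidal-like ECs. Thinned ECs of the endothelial profile were called sinusoidal-like (by Stab2, Stab1, Flt4, Gpr182, Vcam1 and Adgrg6), metaphyseal-like (Piezo2, Ramp3, Lamb1, Aplnr, Col4a1 and Apln), arterial-like (Sema3g, Gja4, Gja5, Fbln5, Sox17 and Bmx) or type R-like (C1qtnf9, Cav1, Fmo2, Aqp7, Edn1 and Bmp6) when at least 2 of the 6 genes of a list were seen and more than of any other list. Of metaphyseal-like ECs, 8.35% (78 of 934, 6.66 to 10.3) were in the cycle in Control and 9.58% (145 of 1513, 8.15 to 11.2) in Dach1OE. Of sinusoidal-like ECs the shares were 2.14% (95 of 4443, 1.73 to 2.61) and 2.75% (85 of 3088, 2.20 to 3.39). These intervals did not overlap between the 2 subtypes in either library, and within each subtype those of the libraries did.

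Over all ECs by the rule the cells without a call, and not the metaphyseal-like ones (9.55% and 10.4%), had the highest share. Of the arterial-like ECs with an endothelial profile, 6.52% (15 of 230, 3.70 to 10.5) of Control and 3.18% (26 of 818, 2.09 to 4.62) of Dach1OE cells were in the cycle, a difference of -3.34 points (-7.43 to -0.433) on few cells, and the Control interval overlapped the metaphyseal-like one. Among type R-like ECs, 0 of 109 Control cells were proliferating, which allows a share of up to 3.33%, and 3 of 101 in Dach1OE. ECs without a call gave 4.82% (26 of 539) and 8.68% (84 of 968), a difference of 3.85 points (1.17 to 6.31). Over all ECs by the rule the cells without a call gave 12.4% and 14.1%, a difference of 1.70 points with an interval that held 0 (-0.65 to 3.97), and the arterial-like ones 7.41% and 4.28%, a difference of -3.13 points (-7.04 to -0.172). The interval of the arterial-like difference thus lay below 0 in both sets of cells, and that of the cells without a call lay above 0 within the endothelial profile but held 0 over all ECs. In the other classes a difference was not detectable at this depth.

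The makeup of the ECs differed between the libraries at the same time. Sinusoidal-like cells were 71.0% of Control and 47.6% of Dach1OE thinned ECs, and 44.4% (37.6 to 51.3) and 24.8% (20.3 to 29.7) of the proliferating ones. Metaphyseal-like cells were 14.9% and 23.3% of the ECs, and 36.4% (30.0 to 43.3) and 42.3% (37.0 to 47.7) of the proliferating ones. Arterial-like cells made up 7.01% and 7.58% of proliferating ECs, although their part in all ECs was 3.68% and 12.6%. Several genes of these lists differed between the libraries, Stab2 and Gja4 among them, so the sizes of the classes are not independent of the gene levels.

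**Figure D3:**
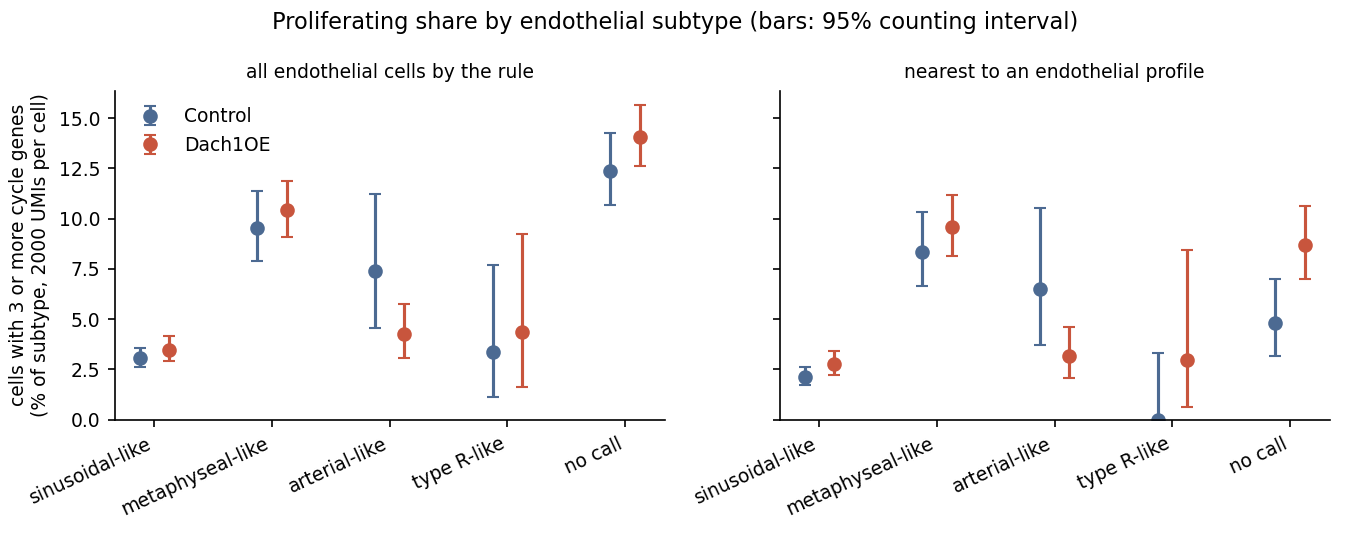
Percent of thinned ECs with at least 3 of the 6 cycle genes (y axis) by endothelial subtype (x axis), for all ECs by the rule (left) and endothelial-profile ECs (right); points are the libraries, Control blue and Dach1OE red, and bars 95% counting intervals. On the right the metaphyseal-like points, 8.35% and 9.58%, lie above the sinusoidal-like ones, 2.14% and 2.75%, and the arterial-like point is lower in Dach1OE.

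Against the other ECs of their own library, proliferating ECs carried a broad cell cycle programme. A gene is written as called when its summed CPM differed at least 2-fold with an interval that left out no change and at least 30 UMIs on both sides together. Over all proliferating ECs, 1434 of 14752 genes (9.72%) were called higher and 884 (5.99%) lower in Control, and 1339 of 14792 (9.05%) and 1167 (7.89%) in Dach1OE. Within the endothelial profile 672 (5.09%) and 362 (2.74%) were called in Control and 640 (4.85%) and 469 (3.55%) in Dach1OE, of which 502 and 124 were called the same way in both libraries. Ratios above 0 were found in 45.2% and 43.1% of all tested genes over all proliferating ECs, in Control and Dach1OE. Within the endothelial profile these shares were 44.7% and 40.6%. Since the rule chose cells by their cycle genes, this contrast is a description.

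Of the 18 entry genes 7 were called higher in each library. Ccnd1, cyclin D1, was at the same level in proliferating and other ECs, 304 and 294 CPM in Control and 814 and 804 CPM in Dach1OE (log2 ratio 0.05 and 0.02), so that the D cyclin which opens the cycle did not mark these cells. Its sister Ccnd2 was lower, 174 beside 237 CPM and 140 beside 221 CPM (-0.44 and -0.66). Cyclin E, which starts S phase, did mark them: Ccne2 had 35.5 beside 2.98 CPM in Control and 53.5 beside 4.98 CPM in Dach1OE. E2f1, an activating E2F, was 2.49 and 1.92 log2 units higher, and the repressing E2f8 4.32 and 4.36 units. Cdk6 was 35.0 beside 35.7 CPM and 31.6 beside 34.9 CPM.

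The replication genes were nearly all called. Of 32 genes of licensing and the fork, 31 in Control and 30 in Dach1OE were called higher, with median log2 ratios of 2.53 and 2.22, beside medians of -0.06 and -0.10 over all tested genes. Mcm5, a subunit of the helicase, had 149 CPM in proliferating and 25.8 CPM in other Control ECs, and 182 and 38.3 CPM in Dach1OE. Mcm6, whose promoter is printed above, had 153 beside 42.3 CPM and 150 beside 62.4 CPM (1.85 and 1.26). Of 10 genes of nucleotide synthesis 9 were called in both libraries, all but Cad. Rrm2, the subunit of ribonucleotide reductase made in S phase, rose from 4.77 to 182 CPM in Control and from 8.38 to 198 CPM in Dach1OE. All 15 genes of repair at the fork were called, with Pclaf, a partner of the sliding clamp, at 520 beside 9.05 CPM and 608 beside 17.5 CPM. The chromatin proteins H2afz and Hmgb2 were high in other ECs already and 2.24 and 2.15, and 3.07 and 3.04, log2 units higher in proliferating ones.

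The genes of mitosis stood highest. All 18 mitotic cyclins, kinases and regulators and all 35 genes of kinetochore, spindle, condensin and cytokinesis were called higher in both libraries, with medians of 5.19 and 4.60, and of 5.14 and 4.62. Ccna2, cyclin A2, had 456 beside 6.89 CPM in Control and 513 beside 10.1 CPM in Dach1OE. Ccnb1, cyclin B1, had 144 beside 2.58 CPM and 152 beside 3.62 CPM. Bub1, the kinase of the spindle checkpoint, had 84.9 beside 0.933 CPM and 99.1 beside 1.98 CPM, and 33.8% and 35.2% of the proliferating cells had a UMI of it. Cdc20, the activator of the anaphase-promoting complex, had 132 beside 4.99 CPM and 160 beside 8.68 CPM, whereas Pttg1, securin, had 59.4 beside 50.6 CPM and 54.2 beside 54.1 CPM and was not called in either library. The 12 highest ratios among genes called in both libraries included Prc1, Ube2c, Birc5 and Mki67, which the rule itself put there. The others were Mxd3 (6.53 and 6.00), Nusap1, Pbk, Ccna2, Pimreg, Bub1, Sapcd2 and Kif18b.

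Inhibitors of the cycle were not uniformly low. Cdkn2c, an inhibitor of Cdk4 and Cdk6, was 128 CPM in the proliferating ECs of both libraries, beside 6.93 and 7.98 CPM in other ECs (log2 ratio 4.21 and 4.0), and Cdkn2d rose by 2.42 and 2.64. Cdkn1a, p21, was 129 beside 72.8 CPM in Control and 203 beside 98.5 CPM in Dach1OE, and was called only in the latter (0.82 and 1.04, a difference between libraries that was not tested). Cdkn1c, p57, was lower in proliferating ECs, 165 beside 324 CPM and 261 beside 598 CPM (-0.97 and -1.20). The gene of the transcriptional brake Btg2 was also lower, by -0.60 and -0.70 on the log2 scale.

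Sinusoidal genes were lower in proliferating ECs. The 7 endothelial genes, which chose the cells and enter the profile, can only be described: all 7 lay below 0 in both libraries and none was called, with medians of -0.20 and -0.24, and over all proliferating ECs the medians were -0.86 and -0.92 with 1 called lower in each. Kdr, the main VEGF receptor, was 1586 beside 2029.5 CPM in Control and 1306 beside 1739 CPM in Dach1OE. All 12 sinusoidal genes lay below 0 in both libraries, and 6 were called in each, not the same 6, with medians of -0.99 and -1.04. Of all tested genes, 44.7% in Control and 40.6% in Dach1OE lay above 0. Adamts5, Cxadr, Rgs4 and Vcam1 were called in both, Adgrg6 and Dnase1l3 in Control, and Madcam1 and Stab2 in Dach1OE. Vcam1, an adhesion molecule of marrow sinusoids, had 505 beside 1043 CPM in Control and 186 beside 517 CPM in Dach1OE. Stab2, a scavenger receptor, had 457 beside 882 CPM and 228 beside 513 CPM. Over all proliferating ECs, mixed cells included, all 12 sinusoidal genes were called lower. Metaphyseal genes were not called, with Aplnr at 741 beside 564 CPM and 756 beside 559 CPM (0.39 and 0.44).

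Arterial genes were lower in the proliferating ECs of Dach1OE. All 12 lay below 0 there and 4 were called lower, with a median of -0.49, whereas in Control none was called and the median was 0.08. Of all tested genes, 40.6% lay above 0 in Dach1OE and 44.7% in Control. Over all proliferating ECs both libraries went down, with 11 of 12 genes below 0 and a median of -0.52 in Control, none called, and 9 called lower with a median of -1.11 in Dach1OE. Gja4, a connexin of arterial endothelium, had 84.4 beside 50.3 CPM in Control and 141 beside 308 CPM in Dach1OE. Fbln5, a fibulin of elastic fibres, had 93.4 beside 125 CPM and 79.3 beside 249 CPM.

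Calls among genes of growth depended on the cells taken. Within the endothelial profile only Nop56 of 14 ribosome biogenesis genes was called (162 beside 75.9 CPM and 234 beside 98.9 CPM), and 13 and 14 of them lay above 0 with medians of 0.53 and 0.50. Over all proliferating ECs 11 and 9 were called higher, with medians of 1.26 and 1.20, and the part of the mixed cells in this was not tested. Within the profile no gene of the respiratory chain was called, and all 13 lay above 0 (medians 0.36 and 0.29). Of all tested genes 44.7% and 40.6% did. Glycolysis had medians of -0.09 and -0.06, with 1 of 16 genes called lower in Control and none called in Dach1OE. Over all proliferating ECs its medians were 0.38 and 0.44. Aldoa, an aldolase, was 216 beside 360 CPM and 249 beside 427 CPM within the profile and was not called. Of 26 genes of endothelial growth signalling, 1 and 4 were called lower and none higher, Vegfa among them in both libraries (-1.15 and -1.14). Blood cell markers went both ways: of the haematopoietic list 3 genes were called higher and 2 lower of 13 tested in Control, and 6 higher and 1 lower of 11 in Dach1OE, with medians of 0.24 and 1.87. Hba-a1, an alpha globin, had 156 beside 42.1 CPM and 256 beside 35.2 CPM, whereas the neutrophil gene S100a8 had 0.999 beside 6.32 CPM in Control, and the part of such RNA in other values was not tested.

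Proliferating ECs held transcripts of S phase and of mitosis, with more of the latter. Cells thinned to 2000 UMIs held on average 6.07 UMIs of 41 S phase genes and 17.9 UMIs of 46 G2/M genes in Control, and 6.78 and 19.9 UMIs in Dach1OE, with the 6 rule genes left out. More S than G2/M UMIs were found in 15.2% (11.6 to 19.5) of Control and 16.6% (13.5 to 20.2) of Dach1OE cells. Of the pooled UMIs of both lists 74.6% were of G2/M in each library, beside 61.1% and 60.0% in the other ECs, where the G2/M list also held the majority. Because most of the 6 rule genes are of G2 and mitosis, cells in early S phase can lack them and be missed. The split by score is a range and not a type, and 55 of 335 and 76 of 493 cells had the 2 sums within 2 UMIs of each other.

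Cyclins were counted in the same cells without thinning. These cells were chosen mostly by genes of G2 and mitosis, so the shares are a description. A UMI of a D cyclin was found in 87.7% of Control and 93.7% of Dach1OE proliferating ECs, one of cyclin A2 in 73.7% and 75.3%, and one of cyclin B1 or B2 in 63.7% and 61.0%. Cyclin E1 or E2 was found in 22.6% (18.4 to 27.3) and 28.7% (24.96 to 32.7). Cells with cyclin E and no cyclin B were 10.3% (7.38 to 14.0) in Control and 16.4% (13.4 to 19.8) in Dach1OE, with intervals that overlapped a little, and cells with both were 12.3% in each. Proliferating stromal cells and chondrocytes, chosen by the same 6 genes with at most 1 endothelial gene, had more S than G2/M UMIs in 17.1% and 20.0%, and in 15.7% and 15.2% of cells. Their pooled G2/M part was 66.1% and 65.4% in the stromal cells and 70.2% and 71.3% in the chondrocytes, below the 74.6% of the endothelial-profile ECs. Over all proliferating ECs, which like these cells were chosen without a profile, the part was 70.5% and 70.9%, above the stromal cells in both libraries but below the chondrocytes in Dach1OE. These differences were not tested.

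**Figure D4:**
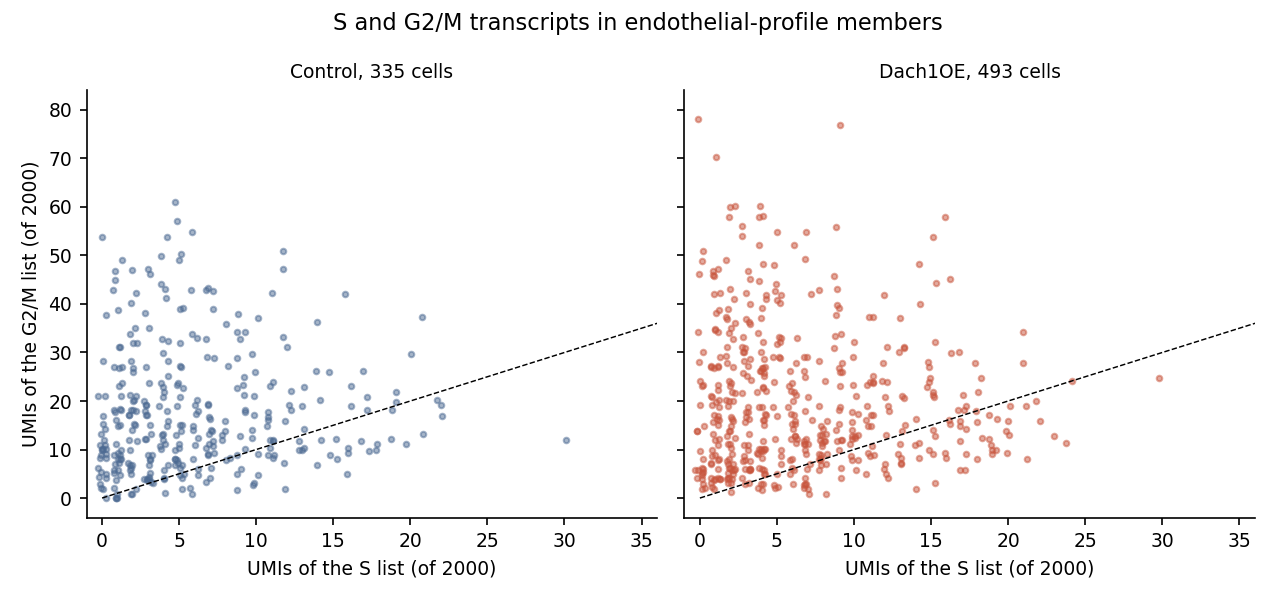
UMIs of the S phase list (x axis) against UMIs of the G2/M list (y axis) in each endothelial-profile proliferating EC (member) thinned to 2000 UMIs, Control left and Dach1OE right; the dashed line marks equal numbers. Most cells lie above the line in both libraries, and 15.2% and 16.6% lie below it.

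The genotype was not used by the rule, so the 2 libraries could be compared within proliferating ECs. Over all of them 156 of 12557 genes (1.24%) were called higher and 278 (2.21%) lower in Dach1OE, beside 408 of 15972 (2.55%) and 388 (2.43%) in other ECs. Within the endothelial profile 220 of 9969 (2.21%) were called higher and 216 (2.17%) lower, beside 548 of 14525 (3.77%) and 372 (2.56%) in other endothelial-profile ECs. More genes reached 30 UMIs in the other ECs, which are more numerous. The calls over all cells were 35.9% higher ones and those within the profile 50.5%, so the balance of directions depended on which cells were taken.

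The cell cycle programme itself gave almost no calls between the libraries. Within the endothelial profile no gene was called among the 6 rule genes, 31 tested licensing and fork genes, 10 of nucleotide synthesis, 15 of repair, 18 of mitosis and 35 of kinetochore and spindle, with medians between 0.12 and 0.29 beside 0.02 over all genes. Mki67 stood at 460 and 512 CPM in the libraries (0.15, interval 0.03 to 0.27). Top2a was 642 and 738 CPM (0.20, 0.10 to 0.30). Rrm2 was 182 and 198 CPM (0.12, -0.07 to 0.32). The 6 rule genes chose the cells in both libraries, and the other genes of the cell cycle are not independent of that choice. The levels of all these genes, those of Mki67 and Top2a included, are therefore a description. All 6 rule genes lay above 0, as did 27 of the 31 licensing and fork genes. Of nucleotide synthesis and repair genes 8 of 10 and 12 of 15 did, beside 52.7% of all tested genes. In the other ECs Pclaf was 0.95 (0.73 to 1.18) higher, and the genes called from the same lists included Orc1, Hells, Bub1 and Nek2.

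Ccnd1 was the 1 cell cycle gene called (chr7:144929931-144939925, minus strand). It had 304 CPM in Control and 814 CPM in Dach1OE proliferating ECs, a log2 ratio of 1.42 (1.29 to 1.55), and 294 and 804 CPM in the other ECs (1.45, 1.42 to 1.49). The rise was therefore of like size in proliferating ECs and in the other ECs, among which cells of the cycle that the rule misses can lie. It was found in cells with Xist (308 and 849 CPM) and with Y-linked UMIs (284 and 847 CPM). Cdkn1a and Cdkn1c, which oppose the cyclin kinases, were higher as well but under 2-fold, 129 and 203 CPM (0.65, 0.44 to 0.87) and 165 and 261 CPM (0.66, 0.47 to 0.86). The rise of Cdkn1c was 1.55 (1.19 to 1.92) in cells with Xist and 0.34 (0.026 to 0.66) in those with Y-linked UMIs. In metaphyseal-like members alone, over all profiles, Cdkn1c was -0.029 (-0.27 to 0.22).

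Sinusoidal genes were lower in the proliferating ECs of Dach1OE. Of 12 genes 6 were called lower and 1 higher, with a median of -0.93, and in other ECs also 6 and 1 with a median of -0.96. Vcam1 fell from 505 to 186 CPM (-1.44, -1.60 to -1.29), Mrc1, the mannose receptor, from 394 to 143 CPM (-1.46), and Stab2 from 457 to 228 CPM (-1.01, -1.16 to -0.86). Dnase1l3, a secreted nuclease, fell from 135 to 34.1 CPM (-1.98), and Cxadr and Adamts5 by 2.06 and 1.21. Flt4, the VEGF-C receptor, was 520 and 286 CPM (-0.86, -1.0 to -0.73). Madcam1, an adhesion molecule, went the other way with 7.99 and 32.7 CPM (2.03, 1.26 to 2.90). Its ratio was 3.36 (1.92 to 5.28) in cells with Xist and 1.35 (-0.11 to 3.12) in those with Y-linked UMIs. Of the metaphyseal list Ramp3 was called lower, 79.9 and 39.1 CPM (-1.03), and Aplnr, whose promoter drives the Cre, was 741 and 756 CPM.

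Some arterial genes had lower ratios between the libraries in proliferating than in other ECs. Only the proliferating ECs were split by sex. Gja4 and Fbln2 were lower in those of each sex, and Gja5 and Sema3g not in those with Y-linked UMIs. Of 11 tested genes 2 were called, Gja5 (26.5 and 58.2 CPM, 1.14) and Hey1, a Notch target (16.98 and 57.1 CPM, 1.75), whereas in other ECs 5 of 12 were. Gja4 was 84.4 and 141 CPM, a ratio of 0.74 (0.47 to 1.01), beside 2.62 (2.53 to 2.70) in other ECs. Gja5 had intervals of 0.68 to 1.61 and 2.48 to 2.72, and Sema3g, a semaphorin of arteries, 0.50 (0.20 to 0.81) and 1.5 (1.42 to 1.58). Fbln2 was 188 and 169 CPM in proliferating ECs (-0.15, -0.35 to 0.05) and 182 and 403 CPM in other ECs (1.14). For these 4 genes the counting intervals of the 2 ratios did not overlap. How many of all tested genes part in this way was not counted. It therefore cannot be said whether this is particular to arterial genes. In proliferating ECs with Y-linked UMIs, however, Gja5 (2.81, 1.83 to 3.98) and Sema3g (1.46, 0.87 to 2.09) were as high as in the other ECs of both sexes together, and in those with Xist they were 0.47 (-0.40 to 1.38) and 0.14 (-0.36 to 0.64). Gja4 (1.02 and 0.78) and Fbln2 (0.39 and -0.04) were below the value of other ECs in the cells of each sex. In metaphyseal-like members alone, over all profiles, Sema3g was -0.14 (-0.88 to 0.63). Notch4 and Dll4, receptor and ligand of the Notch pathway, were not called in either.

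**Figure D5:**
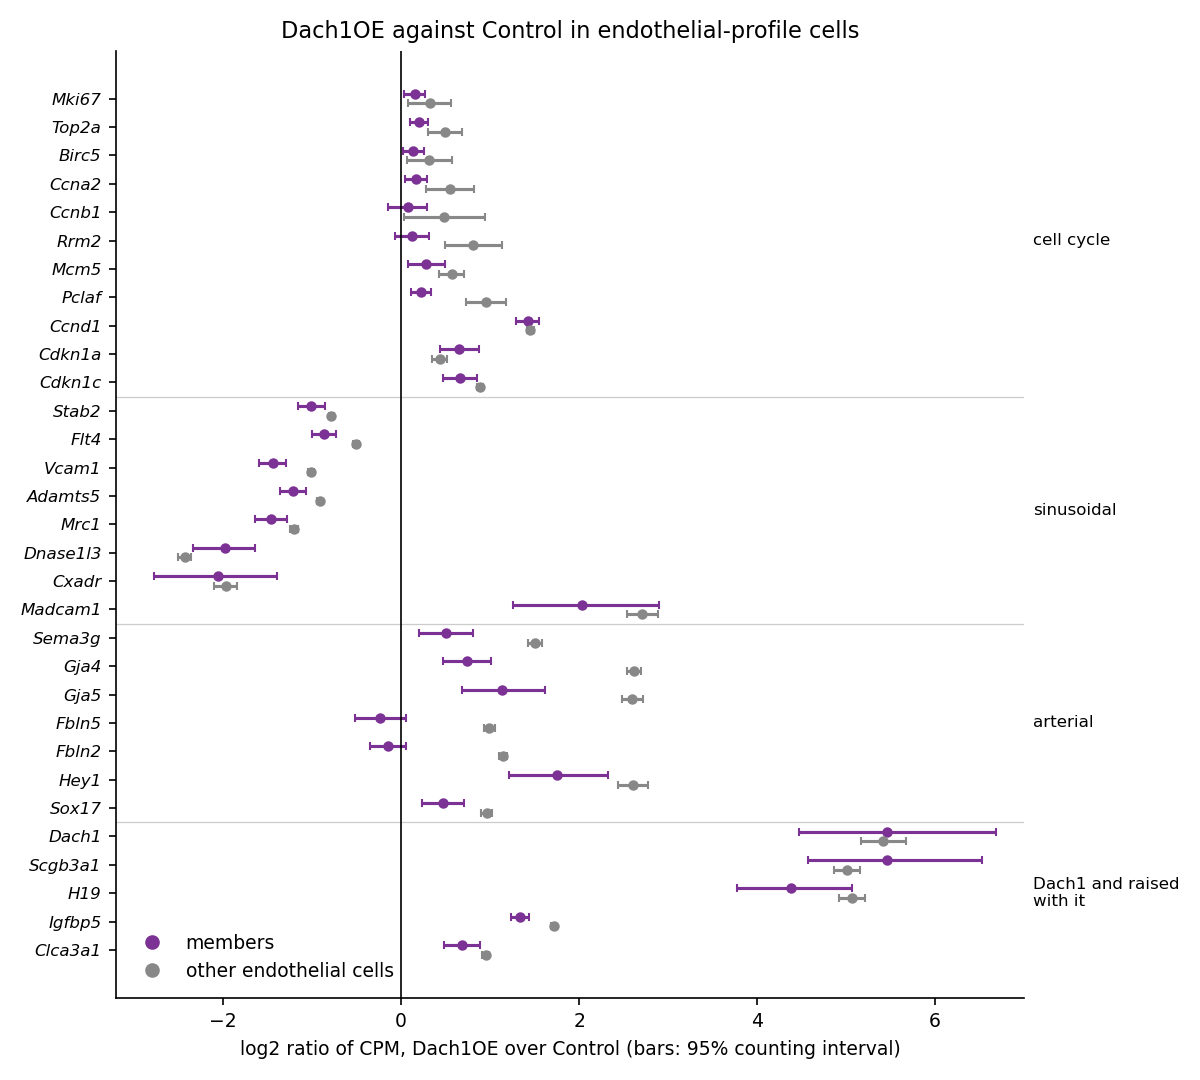
Log2 ratio of CPM, Dach1OE over Control (x axis), of listed genes (y axis) in endothelial-profile proliferating ECs (members, purple) and other ECs (grey), with 95% counting intervals. Cell cycle genes other than Ccnd1, Cdkn1a and Cdkn1c lie near 0 in proliferating ECs, sinusoidal genes except Madcam1 lie below 0 in both, and Gja4 lies nearer to 0 in proliferating than in other ECs.

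The largest rises after Dach1 were of Scgb3a1, a small secreted protein, from 4.99 to 220 CPM (5.46, 4.57 to 6.53), and of Aoc3, AA467197, H19, Car4, Ppp1r9a, Gt(ROSA)26Sor, Vwf, Slc35f2, Tbx3 and Peg10. H19, an imprinted noncoding RNA, went from 11.0 to 229 CPM (4.38, 3.77 to 5.07). Over all cells, metaphyseal-like members alone gave a log2 ratio of -0.68 for H19. Car4, a carbonic anhydrase on the surface of capillaries, had 0 UMIs in Control and 81 in Dach1OE. The low end of its interval was 3.95 log2 units, and the floor of 3 UMIs for Control gave a ratio of 4.28. In Dach1OE 36 of its UMIs were in cells with Xist and 8 in those with Y-linked UMIs. Vwf, von Willebrand factor, went from 11.99 to 134 CPM (3.48, 2.89 to 4.14). Tbx3, a transcription factor, went from 2.497 to 23.3 CPM (3.22). Gt(ROSA)26Sor (chr6:113067428-113077333, minus strand), a noncoding RNA of the locus that holds the transgene, went from 16.0 to 196 CPM (3.62, 3.10 to 4.18), and reads of the transgene cassette could not be told from it. Igfbp5, a binding protein of insulin-like growth factors, had 531 and 1342.5 CPM (1.34, 1.24 to 1.44) and was seen in 51.7% and 69.2% of proliferating ECs.

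Among the 12 deepest falls was that of Gpm6a, a membrane glycoprotein, from 306 to 54.2 CPM (-2.50, -2.76 to -2.24). Nr2f1, a nuclear receptor, fell from 18.0 to 2.87 CPM (-2.65). Ptn, pleiotrophin, fell from 69.9 to 16.5 CPM (-2.08, -2.60 to -1.59), beside -0.55 (-0.70 to -0.40) in other ECs. Grm8, Dpp4, Serpina3f, Rassf9, Tfec, Zfp189 and Cxadr were others. Adipoq, a gene of stromal and fat cells, was also among them (19.5 and 4.67 CPM). Of 7 tested stromal and osteoblastic markers it was called lower with Lepr, while 4 lay above 0 and the median was 0.52. Of 7 tested haematopoietic markers 3 were called higher, among them globin Hbb-bs (49.4 and 194 CPM, 1.97), with a median of 0.71, and of 3 tested mural markers Acta2 and Tagln were called higher, both at 1.40. All 6 chondrocyte markers lay above 0, beside 52.7% of all tested genes, and none was called. The part of other cells' RNA in the rises and falls was not tested.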

How the data were processed

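The deposited tables hold counts: for each cell and gene, whole numbers of reads, of UMIs, and of UMIs adjusted for sequencing errors in the identifier (RSEC), with no normalization. Per the file headers the authors made them with the BD Rhapsody WTA Analysis Pipeline 1.11, on GRCm38 with the annotation GENCODE vM19. Reads in introns were counted, and cell calling was refined. The methods name another pipeline version. Unspliced and overlapping transcripts therefore add to a gene's count, and the strand setting of the counting is not given in the sources used here.

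RSEC-adjusted UMIs were analysed in Python 3.11.15 (numpy 2.4.6, scipy 1.17.1, pandas 2.3.3, scanpy 1.11.5, matplotlib 3.10.9). The tables held 143986818 UMIs for Control and 166999989 for Dach1OE. Cells were kept as the study's methods state. UMIs were summed over cells and divided by the summed total (CPM). Shares have Clopper-Pearson intervals, their differences Newcombe intervals, and CPM ratios exact conditional binomial intervals. No p-value was computed with 1 library per group. For a ratio, a count of 0 was set to a floor of 3 UMIs, which did not enter its interval. The intervals of CPM ratios were run on sums simulated from a Poisson model, without variation between cells, mice or libraries. Such sums can check the calculation only.

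Profiles were built in each library from cells outside the proliferating ECs: cells were seeded by marker genes where a score was over 3 times the next one, and reassigned by multinomial likelihood in 2 rounds. Genes of the cell cycle lists, and genes at least 1.3 times higher in cycling chondrocytes or stromal cells, were left out. Scrublet marked doublets, which were kept. For thinning, UMIs were drawn without replacement, and shallower cells were left out (23 Control and 50 Dach1OE endothelial-profile members at 2000 UMIs).

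Genes named are those of the fixed lists, the 12 largest called rises and falls between libraries seen in at least 5% of members of the higher library, and the 12 highest and lowest genes called in both libraries against other ECs. Xist, Y-linked, mitochondrial, Gm and Rik names were left out. Some genes that this rule names are not reported here. Gata1 and Klf1 were added after their values were seen. The rule for the cells, the gene lists and the comparisons were chosen with earlier results of these data known, and the list of genes raised under Dach1 came from such results, so its direction is no independent evidence. Coordinates are 1-based, from GENCODE vM21 on GRCm38.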

Additional observations from a re-analysis of the deposited data

Results flagged for a closer look

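4 of the named genes had ratios between the libraries of opposite sign in endothelial-profile proliferating ECs with Xist and in those with Y-linked UMIs, with counting intervals that did not overlap. The share of all tested genes that did so was not counted. Among genes called within the profile with 30 UMIs in cells of each sex, most kept their direction in both sexes. These were 82 of 83 higher genes and 107 of 109 lower ones. Other genes, such as Fbln5 (-0.41 and 0.39), had opposite signs with intervals that overlapped. The difference between the sexes was not tested, and each sex is taken to be 1 mouse per library, so that mouse and sex cannot be told apart. Aplnr, the apelin receptor, had a log2 ratio, Dach1OE over Control, of -0.27 (-0.42 to -0.13) in cells with Xist and of 0.23 (0.06 to 0.41) in cells with Y-linked UMIs. Top2a had -0.066 (-0.22 to 0.09) and 0.40 (0.20 to 0.60). Ccnb1, cyclin B1, had -0.37 and 0.58, and Rrm2 had -0.27 and 0.41. The Control cells held the lower levels in the Y-linked group: Top2a was 745 and 712 CPM in cells with Xist and 510 and 672 CPM in cells with Y-linked UMIs. Top2a was among the genes that chose the cells, and Ccnb1 and Rrm2, as genes of the cell cycle, are not independent of that choice. The values of Top2a, Ccnb1 and Rrm2 by sex are therefore a description only. Aplnr was not used by the rule.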

How the results depend on the processing

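No paired analysis was possible because each group has 1 library, and for the same reason no replicate could be left out. The values here are over all ECs or all proliferating ECs (members) by the rule, except where the endothelial profile is named. The counting interval of the difference in the proliferating share, 2.46 points, lay above 0 in every setting run. It was 3.17 points with at least 2 cycle genes, 3.22 in cells with Y-linked UMIs and 0.915 with cells thinned to 1000 UMIs. A minimum of 100 UMIs left 69 genes higher and 120 lower in Dach1OE, in place of 156 and 278. The part of higher genes among the calls was 35.9% over all members, 46.5% in metaphyseal-like members and 50.5% within the endothelial profile, a setting added after seeing the data. Of the 156 and 278 genes, 75 and 125 were tested within the endothelial profile and 66 and 101 were called there too. Against other ECs, 1100 genes were higher and 490 lower in both libraries. Over the same cells the lower ones were 322 with the median ratio set to 0 and 260 with thinned cells. Within the endothelial profile the higher and lower genes were 502 and 124. The cause of the lower counts was not tested. With cells thinned to 1000 UMIs the metaphyseal-like share exceeded the sinusoidal-like one by 2.62 points in Control and 3.27 in Dach1OE. Dach1 was seen in 1.51% of Control and 19.3% of Dach1OE members when thinned, and in 5.03% and 39.2% without thinning. In thinned Dach1OE members of the endothelial profile it was seen in 28.4%.

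Of 961 values of single genes under an alternative, 675 stayed within the counting interval, 270 moved past it and 16 reversed. The 16 belonged to 13 of 93 pairs of a gene and a comparison, and a gene can be in several pairs. Between the libraries, in metaphyseal-like members alone, H19 was -0.68, Sema3g -0.14 and Cdkn1c -0.029. In cells with Y-linked UMIs Fbln5 was 0.24 and Ube2c 0.13, and Ube2c was 0.029 within the endothelial profile. Pclaf was -0.080 without cells that held another type's markers. Against other ECs, Apln in Dach1OE was 0.22 as a mean over cells, 0.32 when thinned and 0.65 within the endothelial profile. Within that profile Aplnr was 0.39 and 0.44 in Control and Dach1OE, Ccnd1 0.050 and 0.019, Sox11 0.29 in Dach1OE and H19 -0.41 in Control, each on the other side of 0 from the value over all members.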
